A study of Mus musculus with 4 samples.

Results

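A set of 10 genes was described, which mark dendritic cells or carry the class II antigen presentation of these cells. Irf8, Siglech and Bst2 stand for plasmacytoid dendritic cells, Itgax and Zbtb46 for conventional dendritic cells, and Ciita, Cd74, H2-Aa, H2-Ab1 and H2-Eb1 for MHC class II. Every probe that the array assigns to these symbols was taken, which gave 12 of the 39429 probes on the array, with 2 probes each for Siglech and Zbtb46. RNA came from Lin- fetal liver cells of Ebf1-/- mice, which lack the transcription factor EBF1 that B cell development normally needs. The cells were infected with a retrovirus and grown in 10 ng/mL each of the cytokines SCF, IL-7 and Flt-ligand, and the methods give OP9 stroma cells and about a week of culture as the general condition. The livers came from mid-gestation embryos of Ebf1+/- matings. The control virus carried the vector alone, which also expresses GFP (EMPTY, 2 arrays), and the other carried Mir195 (2 arrays). All 4 samples were therefore Ebf1-/- and infected, and no wild-type or uninfected sample is part of the comparison. The Mir195 insert is described in the methods as a genomic segment cloned from a human leukemia line. The labels do not say that infected cells were purified or that the replicates came from separate cultures or embryos, so that p-values measure only the spread between these samples. In RNA from a mixed culture, fewer cells of a type and less RNA per cell cannot be told apart.

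Plasmacytoid dendritic cells sense nucleic acids and secrete type I interferon, whereas conventional dendritic cells take up antigen and present it to T cells. Both arise from progenitors that respond to Flt3 ligand, a cytokine that was present in these cultures, and their early stages share surface markers and transcription factors with lymphoid progenitors. MHC class II is built from an alpha and a beta chain, held by the invariant chain until a peptide is loaded. The promoters of these genes carry the X and Y boxes, on which a complex of RFX, CREB and NF-Y factors assembles, and CIITA binds that complex as the coactivator.

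The mature miRNA of the mouse locus is shown because it names the agent that separates the groups. It lies at chr11:70235062-70235082 on the plus strand of GRCm38.p6 (RefSeq), and the capitals mark the seed, bases 2 to 8.
mmu-miR-195a-5p: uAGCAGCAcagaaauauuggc

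Signals are given as log2 of the processed intensity minus the 75th percentile of the array, so that 0 is the level of that percentile. That percentile was 902 to 1127 intensity units, 23658 to 24672 probes per array were well above background, and no spot was flagged as saturated. The EMPTY arrays took the first positions of the slide and the Mir195 arrays the last, so that position and virus cannot be told apart. The single probe of Ebf1 was well above background on all 4 arrays, at 1.85 to 2.03, and its log2 fold change was -0.01. Where this probe lies relative to the disrupted part of the gene is not given in the sources used here. Of 23723 probes tested, 0 passed an adjusted p of 0.05 in limma (0%, lowest adjusted p = 0.101), while 1482 (6.25%) were higher and 497 (2.10%) lower with Mir195 at an unadjusted p under 0.05. This split moved with the processing, to 3417 higher and 336 lower with the normexp correction, 1267 and 694 after quantile normalization and 1112 and 808 when arrays were scaled by their median. The smallest p that 2 arrays per virus allow in an exact permutation test (two-sided) is 0.333. Of the 12 probes of the set, 11 were tested, all but 1 of them well above background on all 4 arrays. None of the 11 passed either, and the lowest adjusted p among them was 0.530 in limma. What follows is therefore a description of levels and differences, with the limma standard errors as their precision.

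The plasmacytoid genes gave signals far above their local background on all 4 arrays, and their means with Mir195 and EMPTY differed by less than the widest gap between arrays of the same virus. Irf8, a transcription factor needed for dendritic cell development, stood at 5.81 and 5.93 with EMPTY and at 5.94 and 5.65 with Mir195. The Mir195 arrays enclosed the EMPTY arrays, and the log2 fold change of Mir195 over EMPTY was -0.07 (standard error 0.15). Bst2, which encodes the surface antigen PDCA-1 (tetherin) and is also induced by interferon, stood at 6.80 and 6.95 with EMPTY and at 6.91 and 6.64 with Mir195. Its values overlapped as well, and the log2 fold change was -0.10 (standard error 0.15). In unscaled terms, the processed signal of Bst2 was 91823 to 127162 units and that of Irf8 was 46403 to 63038 units, over local backgrounds of 34 to 44.5 units for both.

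Siglech, the sialic acid-binding receptor used to mark mouse plasmacytoid cells, has 2 probes, and they did not point the same way. On probe A_55_P2141013 the values were 5.87 and 6.16 with EMPTY and 6.18 and 6.21 with Mir195, so that the Mir195 arrays were above the EMPTY arrays without overlap, as for 23.4% of all tested probes. On probe A_55_P2165790 they were 4.66 and 4.27 with EMPTY and 4.32 and 4.24 with Mir195, and the groups overlapped. The log2 fold changes were 0.18 (standard error 0.15) and -0.19 (standard error 0.17). The first of these probes shares a run of 20 bases with probes of 2 other genes, Chat and Rgs7bp, whereas the second shares none with a probe of another gene. Over the 3 genes, each by its brightest probe, the median log2 fold change was -0.07, beside 0.01 over all tested probes.

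**Figure D1:**
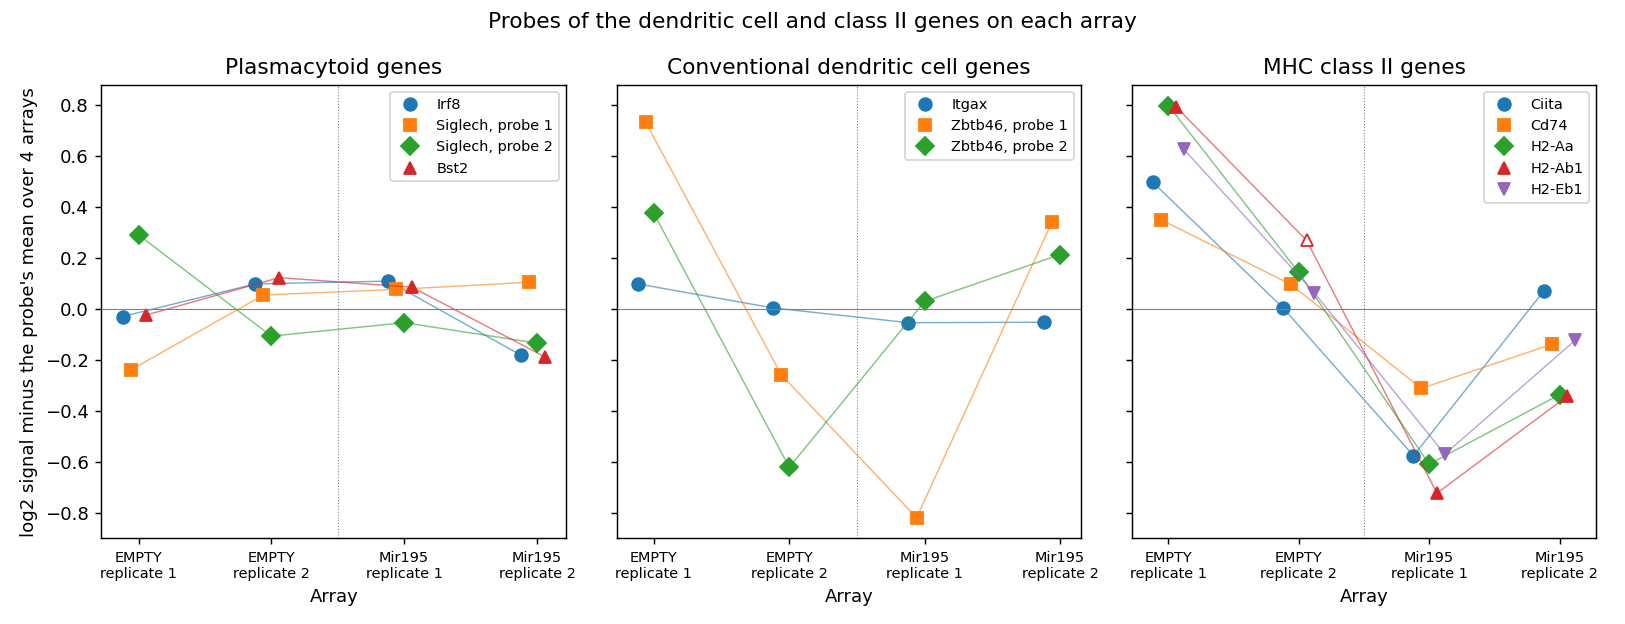
Log2 signal of each probe on each of the 4 arrays, as the difference from that probe's mean over the arrays. Points of a probe are joined by a line, the dotted line separates the EMPTY from the Mir195 arrays, and the open triangle is the spot of H2-Ab1 that the scanner software flagged as an outlier. The plasmacytoid probes stay within 0.3 of their means, whereas each class II probe is highest on EMPTY replicate 1 and lowest on Mir195 replicate 1.

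By the brightest probe of each gene, other genes of plasmacytoid cells gave small differences in both directions. Dimmer probes were higher with Mir195 without overlap for 3 of them and not for others. Of 20 listed genes, 19 had a tested probe, 12 with a value below and 7 with a value above 0, and their median log2 fold change was -0.05. Tcf4, the master regulator of this lineage, stood at 2.64 and 2.49 with EMPTY and at 2.46 and 2.58 with Mir195. Spib, an ETS factor of the same lineage, stood at 3.92 and 3.97 with EMPTY and at 3.97 and 3.86 with Mir195. Among the brightest probes, the highest log2 fold changes were those of Tlr9 (0.34) and Runx2 (0.29), a nucleic acid sensor and a transcription factor, and the lowest were those of Klk1 (-0.58) and Lag3 (-0.32). Among these brightest probes Klk1 alone had an unadjusted p under 0.05 in limma (adjusted p = 0.530). Second probes of the same list did not always follow the first. The dimmer probe of Ccr9, a chemokine receptor, stood at -0.50 and -0.18 with EMPTY and at 0.54 and 0.78 with Mir195 (standard error of the difference 0.17, limma unadjusted p = 0.00256, adjusted p = 0.530), whereas the brighter gave a log2 fold change of 0.05. The dimmer probe of Runx2 stood at -4.94 and -4.86 with EMPTY and at -4.14 and -4.08 with Mir195 (log2 fold change 0.79, standard error 0.12, limma unadjusted p = 0.00139, adjusted p = 0.530). The dimmer probe of Tcf4 gave a log2 fold change of 0.30 (standard error 0.13), against -0.05 for the brighter. These 3 dimmer probes had both Mir195 arrays above both EMPTY arrays, against 23.4% of all tested probes. The dimmer probes of Pacsin1, Lair1 and Tlr7 did not, with log2 fold changes of -0.13, -0.01 and 0.12.

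The class II genes had lower values with Mir195, though none passed the test. Of the 11 tested probes of the set, 4 had both Mir195 arrays below both EMPTY arrays, against 14.4% of all tested probes, and 3 of those 4 were class II genes. H2-Aa, the alpha chain of I-A, stood at 2.45 and 1.80 with EMPTY and at 1.05 and 1.32 with Mir195. The groups did not overlap, and the EMPTY signal was 1.92-fold that of Mir195 (log2 fold change -0.94, standard error 0.26, limma adjusted p = 0.530). H2-Eb1, the beta chain of I-E, stood at 5.25 and 4.68 with EMPTY and at 4.05 and 4.50 with Mir195. These values did not overlap either, and the log2 fold change was -0.69 (standard error 0.26, limma adjusted p = 0.594). Cd74, the invariant chain, stood at 5.08 and 4.82 with EMPTY and at 4.42 and 4.59 with Mir195. Its difference was the smallest of the class II genes, without overlap (log2 fold change -0.45, standard error 0.15, limma adjusted p = 0.558). H2-Aa, H2-Eb1 and Cd74 were the 3 probes of the set with an unadjusted p under 0.05 and a lower value with Mir195 in limma, against 2.10% of all tested probes.

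H2-Ab1, the beta chain of I-A, was left out of the test because its spot on EMPTY replicate 2 was flagged as an outlier. Its values were 5.04 and, in the flagged spot, 4.52 with EMPTY, and 3.53 and 3.91 with Mir195. With the flagged spot kept, the log2 fold change was -1.06 (standard error 0.24, limma adjusted p = 0.534), and with that spot treated as missing it was -1.32 (standard error 0.23, limma adjusted p = 0.531). A second probe on the array, assigned to LOC641240, shares a run of 41 of its 60 bases with the H2-Ab1 probe, so that the same RNA may bind both. That probe carried no outlier flag and stood at 4.86 and 4.41 with EMPTY and at 3.48 and 3.85 with Mir195. Its log2 fold change was -0.97 (standard error 0.22, limma adjusted p = 0.530), and the order of the arrays was that of H2-Ab1.

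The class II probes ranked the arrays alike. The 4 tested class II genes were each highest on EMPTY replicate 1 and lowest on Mir195 replicate 1. The share of all tested probes with this order was not computed. Within a virus the arrays differed by a median of 0.53 between the EMPTY replicates and of 0.36 between the Mir195 replicates, with Mir195 replicate 1 below replicate 2, so that the spread within a virus approached the difference between viruses.

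Ciita, the class II coactivator, was dim, with a signal close to its local background. It stood at -3.99 and -4.49 with EMPTY and at -5.06 and -4.42 with Mir195, and the groups overlapped. The log2 fold change was -0.50 (standard error 0.29, limma adjusted p = 0.766). The unsubtracted spot was 79.1 to 120 units bright against a local background of 33 to 39 units. With the normexp background correction and its offset of 50 units the log2 fold change was -0.04, and which of these 2 changes moved it was not tested. The probe also shares 20 bases with probes of 3 other genes, Cbln2, Odz1 and Prg4, as 7.43% of all probes do with at least 1 other gene. No direction is therefore given for Ciita, and without it the median of the tested class II genes was that of H2-Eb1.

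The factors that assemble on class II promoters lay on both sides of 0. Of 7 listed genes, all were tested, 2 with a value below and 5 with a value above 0, and the median log2 fold change was 0.09. With median scaling 4 of the 7 were below 0, and without Mir195 replicate 2 also 4, with a median of -0.03. The lowest were Rfxank (-0.29) and Rfxap (-0.20), subunits of the RFX complex, and the highest were Rfx5 (0.80), its DNA-binding subunit, and Nfyc (0.15), a subunit of NF-Y. Rfx5 stood at -6.18 and -5.86 with EMPTY and at -5.43 and -5.00 with Mir195 on the brighter of its probes that were tested, near the limit of detection. This probe was not well above background on EMPTY replicate 1 and entered the test through the Mir195 arrays, where it was brighter. Its other tested probe, well above background on all 4 arrays, gave a log2 fold change of 0.50 (standard error 0.22, limma adjusted p = 0.659).

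The promoters of a class II chain gene, of a gene of the loading machinery and of H2-Aa are shown because these genes had lower values with Mir195 and hold at least 1 of the boxes on which the RFX and NF-Y complex assembles. Each line gives the 250 bases upstream of the start site in RefSeq, GRCm38.p6, with capitals for the matched boxes. H2-Eb1 lies at chr17:34305617-34305866 on the plus strand, H2-DMb1 at chr17:34152941-34153190 on the plus strand and H2-Aa at chr17:34287824-34288073 on the minus strand.
H2-Eb1: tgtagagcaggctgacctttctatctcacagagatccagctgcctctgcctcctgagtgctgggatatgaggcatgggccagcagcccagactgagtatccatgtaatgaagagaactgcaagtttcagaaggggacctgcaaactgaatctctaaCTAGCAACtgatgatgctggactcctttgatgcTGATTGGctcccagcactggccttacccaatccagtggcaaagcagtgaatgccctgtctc
H2-DMb1: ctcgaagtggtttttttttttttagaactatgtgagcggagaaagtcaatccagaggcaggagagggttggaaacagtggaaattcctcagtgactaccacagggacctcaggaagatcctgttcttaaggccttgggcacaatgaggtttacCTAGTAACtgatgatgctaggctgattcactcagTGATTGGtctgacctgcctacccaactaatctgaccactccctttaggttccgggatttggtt
H2-Aa: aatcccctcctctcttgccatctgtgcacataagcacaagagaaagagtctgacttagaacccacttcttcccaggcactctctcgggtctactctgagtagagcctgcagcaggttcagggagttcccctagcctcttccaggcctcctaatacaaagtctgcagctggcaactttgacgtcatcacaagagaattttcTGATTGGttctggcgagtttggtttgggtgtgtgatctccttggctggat

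Both strands were searched for TGATTGG as the Y box and for CTAGNAAC as the X box. The Y box was found in both class II genes of the set for which a promoter was at hand, H2-Aa and H2-Eb1, in 5 of 10 genes of the loading and processing list and in 7.23% of 32851 promoters. The X box was found in H2-Eb1 and in 3 of those 10 genes, among them H2-DMb1 and H2-Ob, against 3.06% of all promoters. Only exact matches of the pattern were counted. Upstream of its Y box, H2-Aa holds ctggcaac, which differs from the X box pattern in the third letter only and was not counted. The boxes began 33 bases apart in H2-Eb1, 34 in H2-DMb1 and 31 in H2-Ob, the X box upstream. In H2-Eb2, the other gene with both, the order was turned, with the Y box beginning 102 bases and the X box 12 bases upstream of the start. In the 3 plasmacytoid genes the Y box was found once, upstream of Irf8, and the X box was not found. Bst2 held the pattern of an interferon-stimulated response element, GAAA, any 2 bases and GAAA again, at overlapping positions that began 130 and 124 bases upstream of the start, as did 2.98% of all promoters at least once. These matches describe letters in the window and not the binding of a factor.

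The genes that load and process peptides for class II had mostly lower values with Mir195 too. Of 14 listed genes, 13 had a tested probe, 10 with a value below and 3 with a value above 0. The median log2 fold change was -0.25. The 10 include Cd86 (-0.15), which is not a loading or processing gene and is also counted among the conventional dendritic cell genes. They also include H2-Eb2 (-0.25), a class II chain gene. In 8 of the 13, both Mir195 arrays lay below both EMPTY arrays (14.4% of all tested probes), and 4 had an unadjusted p under 0.05 in limma and a lower value (2.10% of all tested probes). The lowest was Ifi30, the thiol reductase of the endosome, at 0.08 and 0.40 with EMPTY and at -0.27 and -0.81 with Mir195 (log2 fold change -0.78, standard error 0.23, limma adjusted p = 0.535). H2-DMb2, a beta chain of the peptide exchanger H2-M, stood at -1.62 and -2.05 with EMPTY and at -2.35 and -2.35 with Mir195 (log2 fold change -0.52, standard error 0.18). H2-DMb1 and H2-DMa, which encode another beta chain and the alpha chain of that exchanger, had log2 fold changes of -0.44 and -0.33. H2-Oa and H2-Ob, which form its inhibitor, had log2 fold changes of -0.45 and -0.25, and a second probe of H2-Ob gave -0.40. The probe of H2-Ea, the alpha chain of I-E, was well above background on no array.

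The proteases and ubiquitin ligases of the same list gave values from -0.11, for the protease Lgmn, to 0.04. Ctss, the cathepsin that degrades the invariant chain in dendritic cells, stood at 5.12 and 5.11 with EMPTY and at 5.10 and 5.10 with Mir195. The highest log2 fold changes of the list were those of Ctsl (0.04), another cathepsin, and March1 (0.04), a ligase that removes class II from the surface.

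**Figure D2:**
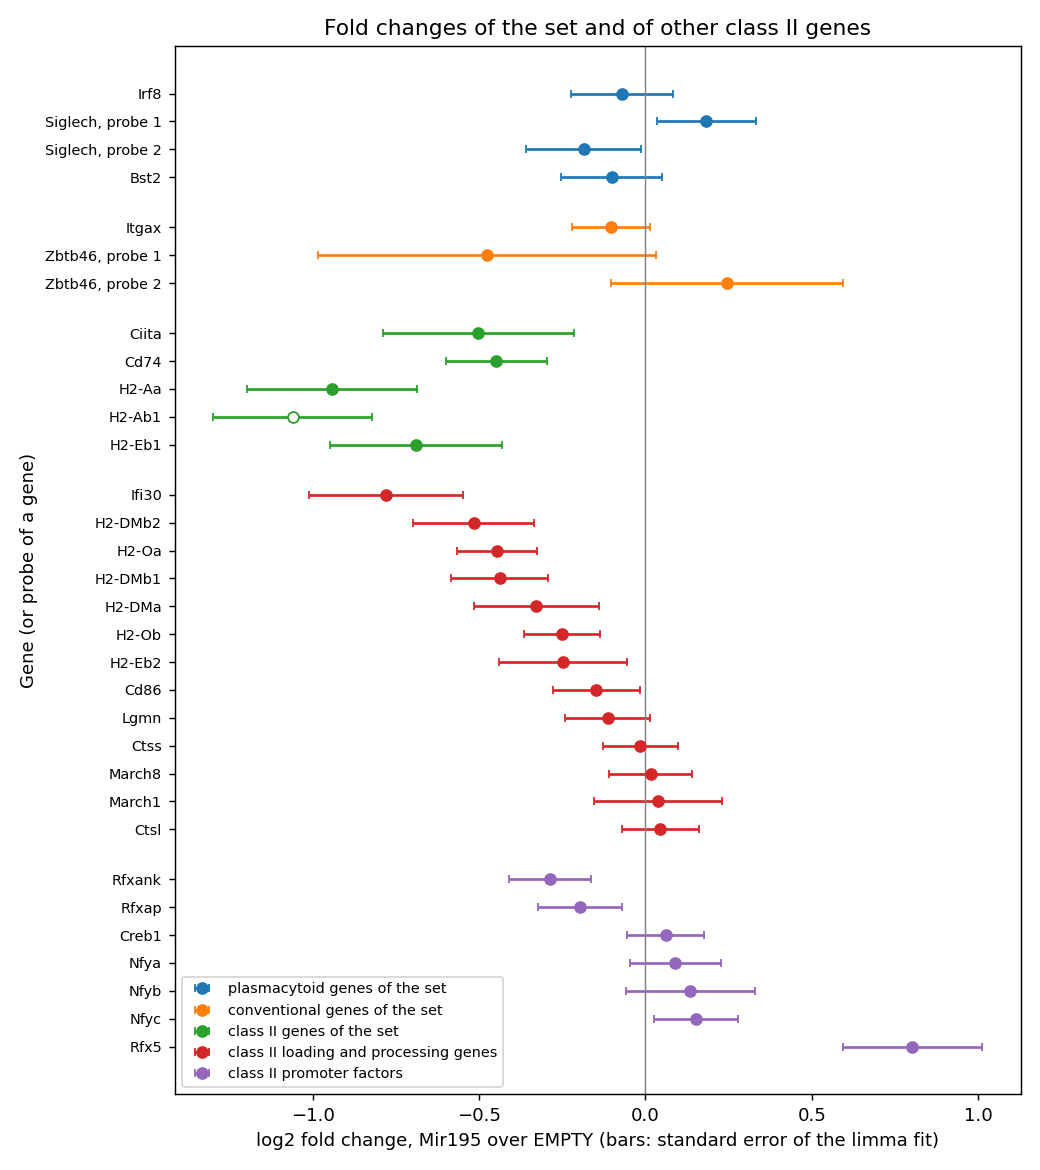
Log2 fold change of Mir195 over EMPTY on the x axis for each probe of the set and for each gene of the class II loading and promoter factor lists on the y axis, with bars for the standard error of the limma fit over 2 arrays per virus. The open circle is H2-Ab1 with its flagged spot kept. The plasmacytoid probes lie within 0.19 of 0, the class II genes from -0.45 to -1.06, and Rfx5, on a probe that was not well above background on EMPTY replicate 1, is at 0.80.

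Between the groups of the set, the median log2 fold change was -0.60 for the 4 tested class II genes and -0.07 for the plasmacytoid genes. The difference was 0.53 on the log2 scale. This class II median and those below include the dim Ciita, for which no direction is given. Without Ciita the class II median was that of H2-Eb1, -0.69. Set out by array, the median plasmacytoid minus class II value, each gene relative to its mean, was -0.59 and 0.02 with EMPTY and 0.66 and -0.05 with Mir195. The groups overlapped on this measure, because EMPTY replicate 2 and Mir195 replicate 2 were nearly equal. The contrast therefore rested on EMPTY replicate 1 and Mir195 replicate 1. Without EMPTY replicate 1 the difference in log2 fold change was 0.23, without EMPTY replicate 2 it was 0.85, without Mir195 replicate 1 it was 0.20 and without Mir195 replicate 2 it was 0.94. The class II median itself stayed below 0 in each case, at -0.36, -0.86, -0.41 and -0.87 in the same order. The plasmacytoid median ranged from -0.22 to 0.07 over the same omissions. From the value table deposited by the authors, the class II median was -0.60 and the plasmacytoid median -0.10.

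**Figure D3:**
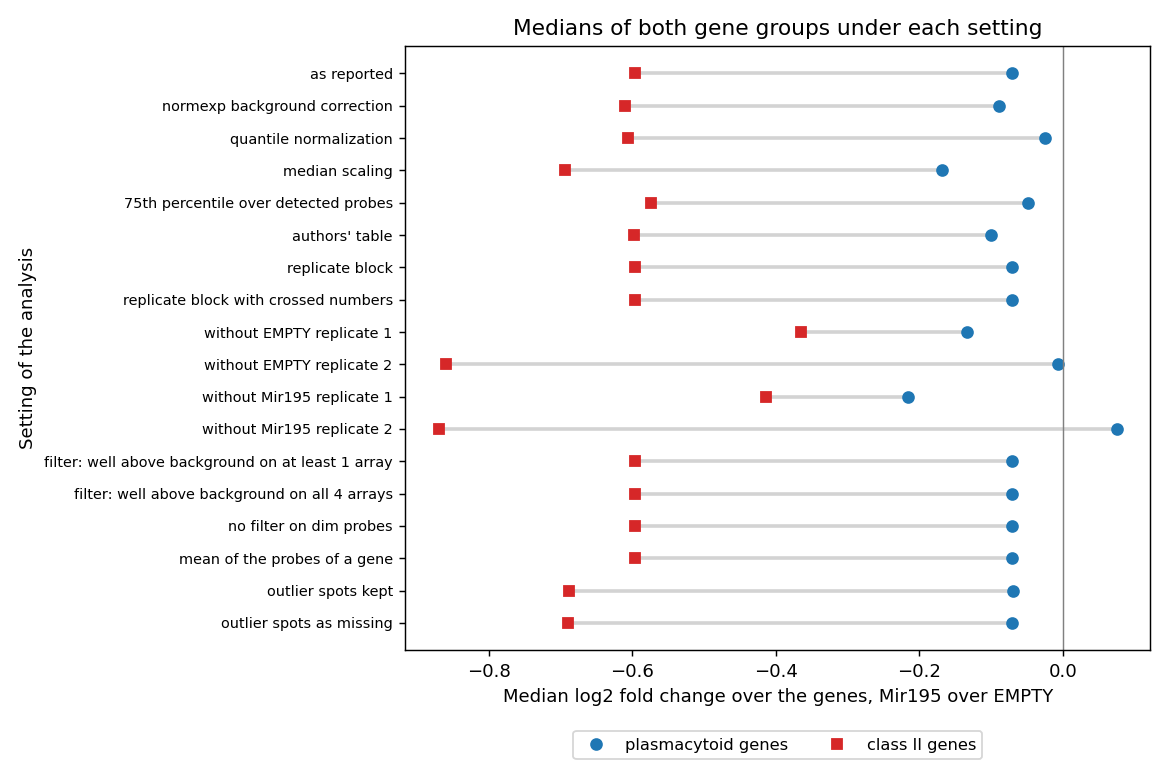
Median log2 fold change of Mir195 over EMPTY for the plasmacytoid genes (circles) and the class II genes (squares) on the x axis, under each setting of the analysis on the y axis, with a grey line joining both medians of a setting. The class II median, which includes the dim Ciita, is the lower under every setting shown. The gap runs from 0.20 without Mir195 replicate 1 to 0.94 without Mir195 replicate 2.

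The conventional dendritic cell genes of the set gave no common direction. Itgax, the integrin chain CD11c, stood at 2.72 and 2.62 with EMPTY and at 2.57 and 2.57 with Mir195. Both Mir195 arrays lay below both EMPTY arrays, but by a log2 fold change of only -0.10 (standard error 0.12). Zbtb46, the transcription factor that separates conventional from plasmacytoid dendritic cells, was dim on both of its probes. Probe A_52_P241508 stood at -4.08 and -5.08 with EMPTY and at -4.43 and -4.24 with Mir195. Probe A_52_P214042 stood at -4.92 and -5.91 with EMPTY and at -6.47 and -5.31 with Mir195, and on Mir195 replicate 1 it was not well above background, so that it entered the test through the EMPTY arrays. Their log2 fold changes were 0.24 (standard error 0.35) and -0.48 (standard error 0.51), so that no difference was detectable.

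A wider list of conventional dendritic cell genes had mostly lower values with Mir195. Of 25 listed genes, 24 had a tested probe, 16 with a value below and 8 with a value above 0, and the median log2 fold change was -0.30. In 13 of the 24, both Mir195 arrays lay below both EMPTY arrays (14.4% of all tested probes), 7 had an unadjusted p under 0.05 in limma in that direction (2.10% of all tested probes) and 0 in the other. These counts include Cadm1, which was well above background on the EMPTY arrays only and so entered the test where it was high. The 13 also include Cd8a (log2 fold change -0.91), which T cells express too. Id2 (-0.38), which the paper lists with T and NK cell genes, is among the 13 as well. Over the 23 genes well above background on all 4 arrays, 15 had a value below 0, 12 had both Mir195 arrays lower, 6 had such a p, and the median was -0.24. Cd209a, a lectin of monocyte-derived and conventional dendritic cells, stood at -2.77 and -4.02 with EMPTY and at -5.72 and -4.65 with Mir195 (log2 fold change -1.79, standard error 0.55, limma adjusted p = 0.538). Ccl17, a chemokine of mature dendritic cells, stood at 0.71 and 0.46 with EMPTY and at -0.80 and -0.04 with Mir195 (standard error of the difference 0.28, limma adjusted p = 0.530). Batf3, the factor needed for cross-presenting dendritic cells, stood at 0.83 and 0.49 with EMPTY and at -0.29 and -0.05 with Mir195 (log2 fold change -0.83, standard error 0.18, limma adjusted p = 0.530). Clec9a, a receptor of the same cells, gave overlapping values, at -5.02 and -5.90 with EMPTY and at -5.31 and -4.52 with Mir195, and Xcr1 was well above background on no array. Flt3, the receptor for Flt3 ligand, stood at 4.64 and 4.70 with EMPTY and at 4.76 and 4.89 with Mir195, and its other tested probe gave a log2 fold change of 0.33. Like the class II genes, 15 of the 24 were highest on EMPTY replicate 1 and 15 were lowest on Mir195 replicate 1. For these counts too, the share over all tested probes was not computed. Without EMPTY replicate 1 the median of this list was -0.09, and without Mir195 replicate 1 it was -0.16. That of the loading and processing list was -0.10 without EMPTY replicate 1 and -0.16 without Mir195 replicate 1.

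Class I presentation and the interferon response showed smaller differences. Of 9 class I genes tested, 8 had a value below 0 and the median log2 fold change was -0.09. In 5 of the 9, both Mir195 arrays lay below both EMPTY arrays (14.4% of all tested probes). An unadjusted p under 0.05 in limma was reached by 0 of them. The lowest were Psmb8 (-0.33) and Psmb9 (-0.29), the immunoproteasome subunits encoded in the class II region, and the highest were H2-K1 (-0.02) and Nlrc5 (0.01), a class I heavy chain and the class I coactivator, of which a second probe gave 0.38. Of 15 interferon-responsive genes tested, 7 had a value below and 8 a value above 0, with a median of 0.05 that was -0.01 without Mir195 replicate 2 and -0.05 with median scaling. Ifi44 (0.48) and Mx1 (0.41) were the highest, and Isg15 (-0.21) and Xaf1 (-0.16) the lowest.

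**Figure D4:**
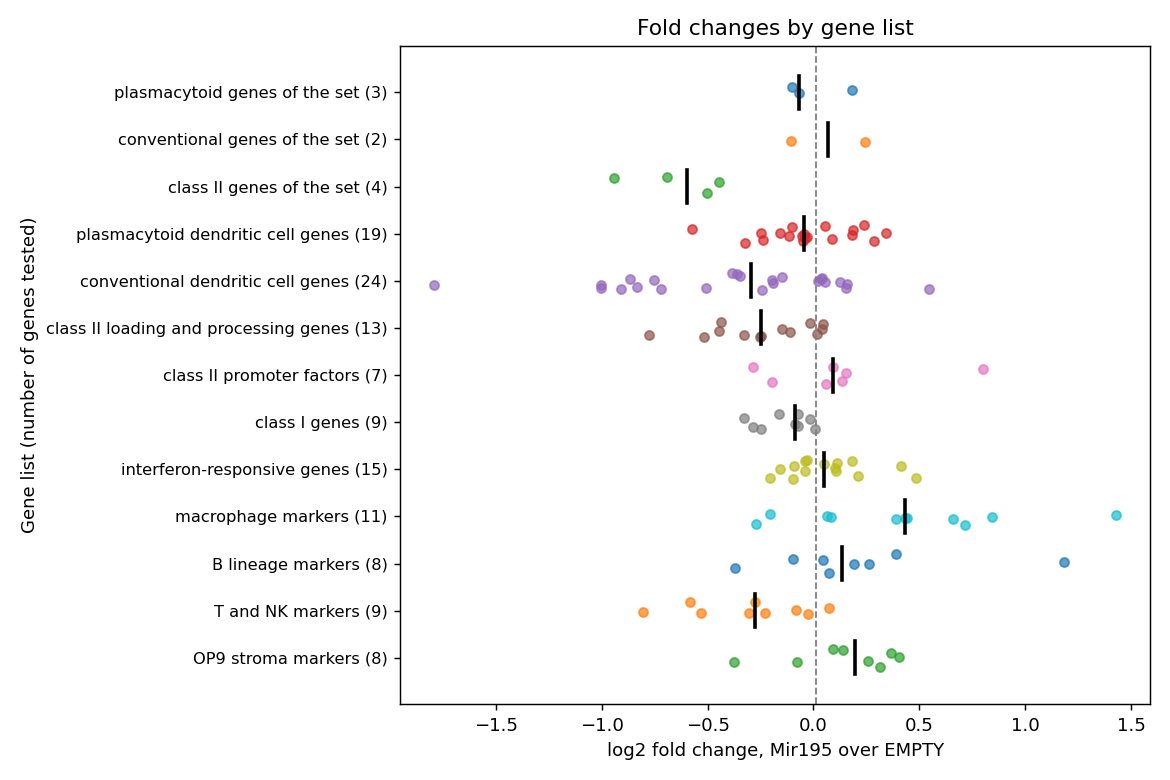
Log2 fold change of Mir195 over EMPTY on the x axis, with 1 point per gene by its brightest tested probe, for each gene list on the y axis (points are spread vertically for legibility). Black bars are list medians and the dashed line is the median of all tested probes, 0.01. The class II genes of the set, with the dim Ciita, lie to the left, at a median of -0.60. So do the conventional dendritic cell and class II loading lists, at -0.30 and -0.25. The macrophage markers lie to the right, at 0.43, which ranged from 0.17 to 0.79 with 1 array left out. Their highest point, C1qa, was well above background on the Mir195 arrays only.

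Markers of other cells in these cultures moved with the arrays as well, and their part in the class II differences was not tested. Of 13 macrophage markers, 11 were tested, and 9 of these had a value above 0, with a median log2 fold change of 0.43. That median was 0.17 without EMPTY replicate 1, 0.72 without EMPTY replicate 2, 0.79 without Mir195 replicate 1 and 0.19 without Mir195 replicate 2. The 2 below 0 were Fcgr1 (-0.27) and Emr1 (-0.21). C1qa was well above background on the Mir195 arrays only and so entered the test where it was high. Over the 10 markers well above background on all 4 arrays, the median was 0.41 and 2 had a value below 0. The mean level of the 11 markers, C1qa included, was -2.65 and -2.41 with EMPTY and -2.36 and -1.87 with Mir195, opposite in direction to class II. Csf1r, a receptor among these markers, stood at 1.48 and 1.56 with EMPTY and 1.72 and 1.49 with Mir195. This was its brightest probe (log2 fold change 0.08), and its 2 other tested probes gave 0.29 and 0.31. Of 9 T and NK cell markers, all were tested and 8 had a value below 0, or 5 without EMPTY replicate 1. Their mean level was 0.92 on EMPTY replicate 1, and 0.31, 0.26 and 0.36 on EMPTY replicate 2 and the Mir195 replicates 1 and 2, so that they were highest on the array on which class II was highest. Of 10 markers of OP9 stroma, 8 were tested, with a mean level of -1.32 and -1.17 with EMPTY and -1.39 and -0.82 with Mir195, and Col1a1 had a log2 fold change of 0.14. The samples are labelled as early B cells, and of 10 B lineage markers 8 were tested, with a median log2 fold change of 0.13 and mean levels of -2.63 and -2.68 with EMPTY and -2.44 and -2.45 with Mir195.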

How the data were processed

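RNA was measured on 4 single-colour Agilent mouse arrays, 2 per virus, grouped by their titles. Per the file headers, the spot intensity is the processed signal after background subtraction, and the authors also deposited log2 values per probe that the methods describe as scaled to the 75th percentile. The processing notes name Feature Extraction 11.5.1.1, whereas the file headers give 9.1.3.1. From the deposited intensity, spots of a probe were averaged on the log2 scale without outlier spots, and the 75th percentile of the array was subtracted. Probes well above background (at least 0.5 of their spots) on each array of at least 1 virus, and free of outlier spots, were tested with lmFit and eBayes of limma 3.58.1 (R 4.3.3, with version 1.17.8 of the data.table package), two-sided, with Benjamini-Hochberg adjustment over all 23723 tested probes and a threshold of 0.05. The method was tested on simulated data. Lists were described by counts and medians, each gene by its tested probe of highest mean signal, without a test. Named from each pathway list were the 2 highest and the 2 lowest genes and a few fixed key genes. The other H2 genes, Ctss, Lgmn, Cadm1, Cd8a, Id2, Ccr9 and second probes were added after their values were seen. Some values under this rule are not reported here. The genes and lists were chosen with earlier results of these data known. Gene symbols are those of the array. The number of arrays limits the precision. The alternatives were normexp with an offset of 50, other scalings, the deposited log2 values, other filters, eBayes with trend and robust estimation, a replicate block, each array left out, the methods' t-test, the mean of a gene's probes and, added after seeing the data, outlier spots kept or missing and the block with crossed numbers.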

Additional observations from a re-analysis of the deposited data

How the results depend on the processing

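Under none of the alternatives did a probe of the set pass an adjusted p of 0.05. The class II median ranged from -0.87 to -0.36 and the plasmacytoid median, which changed sign, from -0.22 to 0.07. Their difference ranged from 0.20 to 0.94. These limits came from leaving out 1 array. With 2 arrays per virus such an omission can hardly move a median beyond the spread between replicates, which is wide. Over all probes, 3 passed with median scaling, 5 with the replicate block, and from 0 to 900 with 1 array left out (900 without Mir195 replicate 1, where the lone Mir195 array is assumed to vary like the EMPTY arrays, and 3 without Mir195 replicate 2). The methods' t-test was run on the differences between arrays of the same replicate number. It gave 1133 of 23723 probes an unadjusted p under 0.05, and 0 after adjustment. The correlation over probes of the difference between replicates 1 and 2 with EMPTY and with Mir195 was -0.10. This value gives no sign that the numbers pair the samples but cannot exclude it. With crossed numbers the replicate block gave 0 probes. Directions turned only for probes with small or dim differences. With 1 array left out, the log2 fold change ranged from -0.22 to 0.0747 for Irf8, from -0.24 to 0.0352 for Bst2, from -0.38 to 0.0125 for Siglech probe A_55_P2165790, from -1.05 to 0.10 for Zbtb46 probe A_52_P214042 and from -0.25 to 0.74 for Zbtb46 probe A_52_P241508. With normexp, Zbtb46 probe A_52_P214042 gave 0.14. H2-Aa, H2-Eb1 and Cd74 kept their sign under every alternative run, H2-Aa from -0.61 to -1.27. Probes below background and the dim Ciita and Zbtb46 probes set the limit of what could be detected.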
